A study of Mus musculus with 12 samples.

Results

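The DEAD and DEAH box proteins form the largest group of RNA helicases, enzymes that use ATP to open RNA duplexes or to strip proteins from RNA. DEAD box members (most genes with Ddx symbols) mostly pry apart short duplexes locally, whereas DEAH box members (most with Dhx symbols) mostly move along a strand. Several DEAH members are switched on by partner proteins that carry a G-patch. They serve each stage in the life of an RNA, from transcription and splicing through export, ribosome assembly and translation to decay, and a few sense viral RNA.

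Members are the protein-coding genes whose symbol is Ddx or Dhx followed by a digit. Membership went by symbol alone, and protein sequences were not examined, so a member may belong to another helicase family. The symbol rule found 51 of the 34513 genes of the count table, 35 Ddx and 16 Dhx genes, and all 51 passed the filter on low counts. RNA-seq was done on cultured mouse cells of 3 lines, the nontumorigenic melanocyte line MelanA and the melanoma lines B16F0 and B16F10. Each line was sequenced as untreated controls and after exposure to SX-682, which inhibits the chemokine receptors CXCR1 and CXCR2. Every one of the 6 groups held 2 libraries. The dose and duration of SX-682 for these cultures are not given in the sources used here, and the labels name no vehicle for the controls. Since nothing says that replicates were separate cultures, p-values measure only the spread between these libraries, which may be technical.

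Library totals ran from 48876982 to 85322092 counts, and the biological coefficient of variation in the fit was 2.78%, so that small changes could pass the threshold. Levels are given as counts-per-million values (CPM). On raw library totals, the 8 melanocyte markers summed to between 1433 and 23135 CPM in every library, with the lowest sums in MelanA, where Sox10 was at 696 CPM or more but Tyr, the gene of tyrosinase, at most at 0.948 CPM, Mc1r at most at 3.79 CPM and Pmel at most at 9.26 CPM. The markers of keratinocytes summed to at most 3.61 CPM, of leukocytes to at most 7.65 CPM, of endothelial cells to at most 2.42 CPM and of fibroblasts to between 7.89 and 57.3 CPM. Each of these sums was highest in MelanA. In the B16 lines they reached at most 0.721, 0.502, 1.06 and 16.6 CPM, in the same order. The melanocyte sum was lower with SX-682 in B16F0 (15787 and 16050 against 18846 and 18890 CPM) and in B16F10 (14323 and 14395 against 23040 and 23135 CPM), and ribosomal protein genes took a larger share of the counts with SX-682 in each line (4.23 and 4.27% against 3.46 and 3.48% in MelanA, 5.86 and 6.13% against 5.26 and 5.26% in B16F0, 6.25 and 6.31% against 4.86 and 4.84% in B16F10). The mitochondrial share was also higher with SX-682 in each line (1.152 and 1.153% against 0.957 and 0.968% in MelanA, 0.847 and 0.863% against 0.756 and 0.779% in B16F0, 1.242 and 1.236% against 1.021 and 0.989% in B16F10). The part of any of these in the changes of the helicases, or in their differences between lines, was not tested.

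Sequences are shown for genes to which the results return. Ddx60 gave the largest fitted rise in B16F0, Ddx21 and Ddx50 are neighbours that changed in opposite directions, and Ddx19a and Ddx19b are neighbours of which the second was almost uncounted in MelanA. The sequences are the 120 bases just upstream of the start in RefSeq (GRCm38.p6), 5′ to 3′ on the gene's own strand, and capitals mark motif matches. In Ddx60 (chr8:61927967-61928086, plus strand) the capitals are 2 matches to the core of the interferon-stimulated response element, GAAA followed by any 2 bases and GAAA again, which began 53 and 19 bases before the start. In Ddx19a (chr8:110997824-110997943, minus strand) they are the cyclic AMP response element TGACGTCA, beginning 22 bases before the start, and Ddx19b (chr8:111031752-111031871, minus strand) had no match. Neither Ddx21 (chr10:62602299-62602418, minus strand) nor Ddx50 (chr10:62651219-62651338, minus strand) had one.
Ddx60: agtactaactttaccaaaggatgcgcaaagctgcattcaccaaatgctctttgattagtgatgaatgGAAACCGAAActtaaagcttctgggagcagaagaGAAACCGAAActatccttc
Ddx19a: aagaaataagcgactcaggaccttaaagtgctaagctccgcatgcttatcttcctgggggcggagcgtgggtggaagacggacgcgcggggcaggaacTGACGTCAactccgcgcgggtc
Ddx19b: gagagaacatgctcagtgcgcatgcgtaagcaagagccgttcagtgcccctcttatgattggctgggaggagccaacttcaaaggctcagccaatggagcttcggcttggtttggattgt
Ddx21: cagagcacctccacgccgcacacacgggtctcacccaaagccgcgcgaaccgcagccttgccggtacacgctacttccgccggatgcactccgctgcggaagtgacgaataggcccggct
Ddx50: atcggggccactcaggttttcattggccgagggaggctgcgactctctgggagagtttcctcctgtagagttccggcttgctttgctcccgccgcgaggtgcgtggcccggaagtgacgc

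Start windows of 300 bases were found for 45 of the 51 members, in 56 windows because some genes have several starts. None was found for Ddx6, Ddx11, Ddx23, Ddx39, Dhx38 and the sensor Dhx58, so these genes were not searched. On both strands, the interferon-stimulated response element core lay in 7.14% of the members' windows and in 3.13% of the windows of protein-coding genes, TGACGTCA in 10.7% and 2.5%, and the E-box CACGTG in 12.5% and 8.59%. Besides Ddx60, the interferon motif was found in Ddx58, beginning 3 bases after the start, and in Ddx49. The windows of Ddx49 overlap, and the same interferon and TGACGTCA matches were counted in each of them. These are letter matches in a window and not sites of binding.

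Before treatment, the members spanned a wide range of levels per length, given as CPM per kilobase of exon (RPKM). In the MelanA controls they ran from 0.00913 to 107.0 RPKM with a median of 13.3, in the B16F0 controls from 0.0265 to 100.7 with a median of 14.9, and in the B16F10 controls from 0.0133 to 95.8 with a median of 13.9. Ddx5, a coregulator of transcription and splicing, and Ddx3x, which helps initiate translation on structured messenger RNAs, had the highest levels in every line. Ddx5 was at 108.0 and 106.0 RPKM and Ddx3x at 87.2 and 83.4 RPKM in MelanA. In B16F0 the libraries of the pair ran into each other, with 100.3 and 101.0 RPKM for Ddx5 and 99.0 and 100.3 RPKM for Ddx3x. In B16F10 Ddx3x led with 93.6 and 98.1 RPKM, and Ddx5 had a mean of 89.5 RPKM. The next places were taken by Ddx42, Ddx39b and Ddx17 in MelanA, and by Ddx1, Ddx21 and Ddx39b in both B16 lines. Ddx4, the germ cell helicase also called Vasa, had 0 to 30 counts in a library and is close to absent from all 3 lines.

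**Figure D1:**
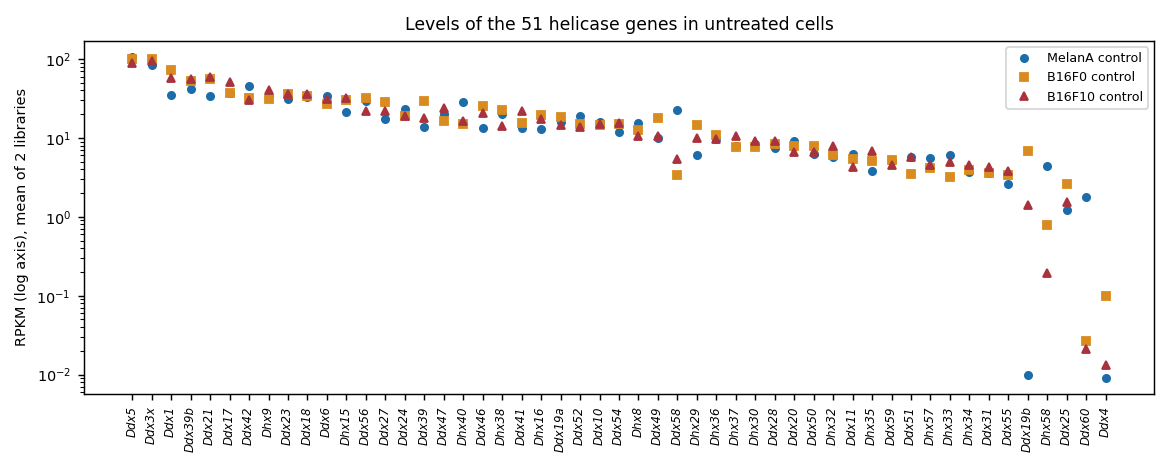
Levels of the 51 members in untreated cells, as RPKM on a log axis, each point the mean of 2 libraries of a line, with genes ordered by their mean over the lines. Ddx5 and Ddx3x lie highest in each line, and the lines part most at the low end, at Ddx19b, Dhx58 and Ddx60.

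The untreated lines were compared to ask which helicases differed before SX-682. In B16F0 against MelanA, 26 members were higher and 19 lower by edgeR's quasi-likelihood test (adjusted p under 0.05), where 35.3% of all genes tested were higher and 40.6% lower. In B16F10 against MelanA, 28 were higher and 18 lower, with 33.4% and 40.8% of all genes. B16F10 against B16F0 gave 20 members higher and 23 lower, with 30.8% and 31.2% of all genes. Among genes with a mean of at least 10 CPM, the members called in either direction were 87.5%, 91.7% and 85.4% in these comparisons, against 88.2%, 87.1% and 81.7% of genes. Upper-quartile scaling turned that last split into 13 higher and 25 lower. The members' median differences were 0.09, 0.17 and -0.02 on the log2 scale, against -0.06, -0.10 and -0.002 over all genes.

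The antiviral sensors among the members were far lower in the melanoma lines than in MelanA. Ddx58 encodes RIG-I, which detects viral RNA ends. Ddx58 was at 158 and 162 CPM in the MelanA controls, at 24.6 and 23.8 CPM in B16F0 and at 38.3 and 38.0 CPM in B16F10, log2 differences from MelanA of -2.72 ± 0.04 and -2.07 ± 0.04 (SE). Dhx58 encodes LGP2, a relative of RIG-I that modulates its signal. It was at 14.3 and 14.5 CPM in MelanA, 2.12 and 3.09 CPM in B16F0 and 0.728 and 0.532 CPM in B16F10, lower by -2.48 ± 0.12 and -4.52 ± 0.16 on the log2 scale. Ddx60, an interferon-induced cofactor of RIG-I, was at 15.1 and 15.8 CPM in MelanA but at 0.267 and 0.193 CPM in B16F0 and 0.198 and 0.172 CPM in B16F10. That is 1302 and 1440 counts against 20 and 13 counts and 12 and 11 counts, with log2 differences of -6.05 and -6.37. With so few counts in the B16 lines the size of these Ddx60 differences is imprecise, and no SE is given. For all 3 genes the MelanA libraries lay above those of either melanoma line, with adjusted p of at most 1.8e-17 in edgeR's quasi-likelihood test.

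Ddx19b showed the reverse. Ddx19a and Ddx19b encode near-identical helicases that release messenger RNA from its export carriers at the nuclear pore, and their genes lie 5387 bases apart on chromosome 8 (chr8:110974996-110997800 and chr8:111003188-111031751). Ddx19b had 2 and 10 counts in the MelanA controls, 3346 and 3116 counts in B16F0 and 578 and 611 counts in B16F10. In CPM these were 0.0232 and 0.110, 44.7 and 46.3, and 9.56 and 9.56. The log2 difference from MelanA was 9.35 in B16F0 (adjusted p = 1e-28) and 7.10 in B16F10 (adjusted p = 8.8e-23, edgeR's quasi-likelihood test). One MelanA library lies under the floor of 3 counts. With so few counts in MelanA the size of these differences is imprecise, and no SE is given. Ddx19a was counted evenly, at 47.4 and 47.2 CPM in MelanA, 54.9 and 54.5 CPM in B16F0 and 43.5 and 43.9 CPM in B16F10. The 2 genes are paralogues, and how reads fitting both were counted is not given in the sources used here.

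Other members with wide differences between controls had smaller folds. Dhx29, which aids ribosome scanning, was at 36.7 and 36.0 CPM in MelanA, 89.8 and 87.5 CPM in B16F0 and 60.2 and 58.4 CPM in B16F10, higher by 1.29 ± 0.04 and 0.71 ± 0.04 on the log2 scale. Ddx1, a part of the transfer RNA ligase complex, was at 181 and 172 CPM in MelanA, 369.5 and 366 CPM in B16F0 and 295 and 295 CPM in B16F10, higher by 1.06 ± 0.03 and 0.74 ± 0.03. Ddx25, best known from the testis, was at 8.72 and 8.22 CPM in MelanA, 18.5 and 17.8 CPM in B16F0 and 11.01 and 10.5 CPM in B16F10. For these 3 genes the libraries were ordered without overlap, with MelanA lowest and B16F0 highest.

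Dhx35, Ddx41, Ddx51 and Dhx38 differed between the 2 melanoma lines. The spliceosome helicase Dhx35 was at 19.6 and 20.0 CPM in MelanA, 26.6 and 26.0 CPM in B16F0 and 35.0 and 35.3 CPM in B16F10, and Ddx41, a helicase bound to the active spliceosome, at 37.8 and 34.4, 42.8 and 41.5, and 59.7 and 57.7 CPM. Both were higher in B16F10 than in MelanA, by 0.83 ± 0.05 and 0.70 ± 0.04 on the log2 scale. Ddx51, which acts on large-subunit ribosomal RNA, was at 29.6 and 29.9 CPM in B16F10 and 18.3 and 17.9 CPM in B16F0, higher by 0.72 ± 0.06 on the log2 scale. Dhx38, needed for the second step of splicing, was at 68.0 and 72.2 CPM in B16F10 and 111 and 111 CPM in B16F0, lower by -0.66 ± 0.04.

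SX-682 against control was then compared within each line, to ask how the helicases responded. In MelanA 22 members rose and 18 fell, where 23.4% of all genes tested rose and 24.7% fell (edgeR's quasi-likelihood test, adjusted p under 0.05). In B16F0 22 rose and 19 fell, with 25.1% and 25% of all genes, and in B16F10 22 rose and 19 fell, with 25.5% and 25.3%. The share of members called depends on how well they were counted. Among genes with a mean of at least 10 CPM, 79.2% of 48 members and 72.3% of all such genes were called in MelanA, 81.2% and 73.9% in B16F0, and 81.2% and 76.3% in B16F10. The members' median log2 fold change was 0.04 in MelanA, 0.03 in B16F0 and 0.04 in B16F10, against 0 over all genes in each line. Taking a change of at least 0.5 on the log2 scale as well, 5 members rose and 7 fell in MelanA (8.3% and 8% of all genes). By that size 4 rose and 7 fell in B16F0 (10.2% and 9.22%), and 6 rose and 11 fell in B16F10 (11.4% and 10.1%).

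Summed over all 51 members, CPM on scaled library sizes fell, because the falls included some of the members with the most counts. The members took 5312 and 5217 CPM in the MelanA controls and 4695 and 4717 CPM with SX-682, 5716 and 5710 against 4906 and 4906 CPM in B16F0, and 5613 and 5690.3 against 4872 and 4910 CPM in B16F10. The libraries of the 2 conditions did not overlap in any line, and the means changed by -10.6%, -14.1% and -13.5%. The 3 largest falls came to -451 CPM in MelanA, -544 CPM in B16F0 and -640 CPM in B16F10, led in each line by Ddx3x and Dhx9 and completed by Ddx17 in MelanA and B16F0 and by Ddx6 in B16F10. On raw library totals, the members took 0.5648 and 0.5555% in the MelanA controls and 0.5055 and 0.5082% with SX-682. In B16F0 this was 0.5699 and 0.5704% against 0.4855 and 0.4832%, and in B16F10 0.5259 and 0.5316% against 0.4631 and 0.4615%. All of these are values of bulk RNA, so that fewer transcripts per cell and fewer cells expressing a gene cannot be told apart.

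Of the 51 members, 14 rose in every line (27.5%), as did 11.3% of the genes tested, and 13 fell in every line (25.5%), as did 11.7%. Among genes of at least 10 CPM the shares were 25% of members against 18.4% of genes for rises, and 27.1% against 20.7% for falls. The 13 that fell were Ddx3x, Ddx6, Ddx11, Ddx21, Ddx23, Ddx39, Ddx46, Ddx51, Dhx9, Dhx15, Dhx33, Dhx37 and Dhx38. The 14 that rose were Ddx24, Ddx27, Ddx41, Ddx42, Ddx50, Ddx56, Ddx58, Ddx59, Ddx60, Dhx30, Dhx34, Dhx40, Dhx57 and Dhx58. With a change of at least 0.5 in each line as well, 5 members fell (Ddx3x, Ddx23, Ddx39, Ddx46 and Dhx9), with 1.97% of all genes, and 1 rose (Dhx34), with 2.6%.

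**Figure D2:**
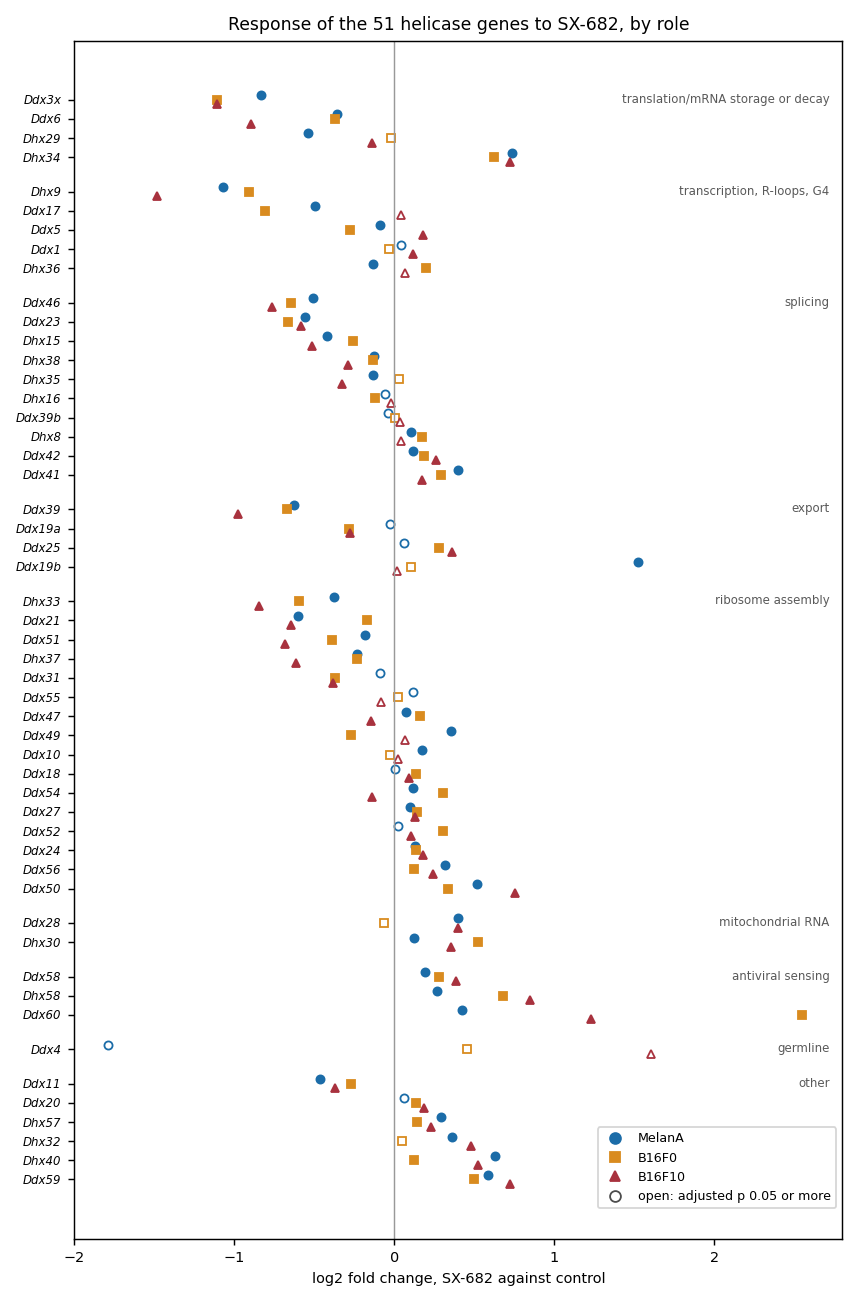
Log2 fold change of SX-682 against control for each of the 51 members in MelanA (circles), B16F0 (squares) and B16F10 (triangles), grouped by role, with open symbols where the adjusted p was 0.05 or more. Leaving out Ddx4, which had few counts, Dhx9 and Ddx3x lie farthest to the left in all 3 lines, the 3 antiviral sensors lie to the right in each line, and Ddx21 and Ddx50 lie on opposite sides.

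Among helicases of transcription and of nucleic acid structures, Dhx9 fell most. Dhx9 (chr1:153455758-153487660, minus strand) unwinds RNA and RNA-DNA hybrids in the nucleus. It was counted at 325 and 325 CPM in the MelanA controls and 156 and 153 CPM with SX-682, at 297 and 298 against 161 and 156 CPM in B16F0, and at 392 and 396 against 142 and 140.3 CPM in B16F10. Every treated library lay below every control of its line. Dhx9 fell by 1.07 ± 0.03 on the log2 scale in MelanA (SE, adjusted p = 3e-24), 0.91 ± 0.03 in B16F0 (adjusted p = 1.5e-22) and 1.48 ± 0.03 in B16F10 (adjusted p = 8.2e-28, edgeR's quasi-likelihood test). It was left at 0.476, 0.534 and 0.359 times its control level, and the fall in B16F10 was larger than that in B16F0 by -0.58 ± 0.04 on the log2 scale (adjusted p = 2e-13, same test).

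The paralogues Ddx5 and Ddx17, coregulators of transcription and splicing, responded unequally. Ddx17 was at 287 and 286 CPM in the MelanA controls and 202 and 204 CPM with SX-682, at 288 and 287 against 168 and 160 CPM in B16F0, and at 392 and 403 against 412 and 407 CPM in B16F10. It fell by 0.50 ± 0.03 on the log2 scale in MelanA and 0.81 ± 0.03 in B16F0, while in B16F10 the value was 0.04 ± 0.03 (adjusted p = 0.15). The response differed between B16F10 and B16F0 by 0.85 ± 0.04 (adjusted p = 6e-17, edgeR's quasi-likelihood test). Ddx5 was at 624 and 612 against 579.7 and 583 CPM in MelanA, 579.3 and 583 against 479.5 and 480.1 CPM in B16F0, and 514 and 519.7 against 591 and 578 CPM in B16F10. It fell by 0.09 ± 0.02 and 0.28 ± 0.02 and rose by 0.18 ± 0.02, all with adjusted p of at most 0.00074 in edgeR's quasi-likelihood test. Its response in B16F10 exceeded that in B16F0 by 0.45 ± 0.03 (adjusted p = 8.4e-13, same test). The ratio of Ddx5 to Ddx17 counts was 2.17 and 2.14 in the MelanA controls and 2.87 and 2.85 with SX-682, 2.01 and 2.03 against 2.85 and 3.01 in B16F0, and 1.31 and 1.29 against 1.43 and 1.42 in B16F10, so that it was higher with SX-682 in every line.

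Dhx36, which unwinds G-quadruplexes, was at 103 and 95.0 against 90.8 and 89.5 CPM in MelanA, 109.6 and 114 against 128 and 127 CPM in B16F0, and 96.8 and 102 against 104 and 104 CPM in B16F10. It fell by 0.14 ± 0.04 in MelanA and rose by 0.20 ± 0.04 in B16F0, with 0.07 ± 0.04 in B16F10 (adjusted p = 0.12, edgeR's quasi-likelihood test). Without the MelanA control replicate 1 the MelanA value was -0.07 (adjusted p = 0.17). Ddx1 rose in B16F10 by 0.12 ± 0.03, and this response exceeded that in B16F0 by 0.15 ± 0.04 (adjusted p = 0.0026, same test).

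Of the 4 helicases of translation and messenger RNA storage or decay, Ddx3x and Ddx6 fell in each line and Dhx34 rose in each. Ddx3x (chrX:13280970-13294052, plus strand) was at 459.9 and 440.3 CPM in the MelanA controls and 255 and 250.5 CPM with SX-682, 523 and 529 against 248 and 240.3 CPM in B16F0, and 494 and 518 against 234 and 234 CPM in B16F10. The 3 lines ended within 234 to 255 CPM from controls of 440.3 to 529 CPM. Ddx3x fell by 0.83 ± 0.03, 1.11 ± 0.03 and 1.11 ± 0.03 on the log2 scale, to 0.561, 0.464 and 0.463 times control (adjusted p of at most 4.6e-21). The fall was larger in the mean of the B16 lines than in MelanA by -0.28 ± 0.03 (adjusted p = 3.8e-08, edgeR's quasi-likelihood test).

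Ddx6, a core factor of P-bodies that holds messenger RNAs for silencing and decay, was at 286 and 262 against 218 and 210.2 CPM in MelanA, 218 and 214 against 173 and 161 CPM in B16F0, and 248.7 and 252 against 128 and 141 CPM in B16F10. It fell by 0.36 ± 0.04, 0.37 ± 0.04 and 0.89 ± 0.04, and the fall in B16F10 was larger than in B16F0 by -0.53 ± 0.06 (adjusted p = 9.2e-09, edgeR's quasi-likelihood test). Dhx34, which takes part in nonsense-mediated decay, was at 16.5 and 17.3 against 28.6 and 27.6 CPM in MelanA, 18.3 and 17.6 against 26.9 and 28.5 CPM in B16F0, and 18.9 and 22.4 against 34.3 and 33.9 CPM in B16F10. It rose by 0.73 ± 0.06, 0.62 ± 0.07 and 0.72 ± 0.07, and the test of a difference among lines gave an adjusted p of 0.55 (edgeR's quasi-likelihood test). Dhx29 fell in MelanA from 36.7 and 36.0 to 25.5 and 24.5 CPM, by 0.54 ± 0.04, while in B16F0 it was at 89.8 and 87.5 against 87.5 and 87.5 CPM and in B16F10 at 60.2 and 58.4 against 53.2 and 54.3 CPM. The fall in MelanA exceeded the mean of the B16 lines by 0.46 ± 0.05 (adjusted p = 9.5e-09, same test).

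Of 10 spliceosome helicases, 4 fell in all 3 lines and 2 rose in all 3 lines. Among all genes tested 11.7% fell and 11.3% rose in all 3 lines, or 20.7% and 18.4% at 10 CPM or more. Ddx46, which acts at branch-site recognition, was at 99.0 and 95.1 against 66.7 and 69.9 CPM in MelanA, 183 and 185 against 112 and 124 CPM in B16F0, and 147 and 155 against 90.02 and 87.9 CPM in B16F10. Ddx23, which prepares the pre-catalytic spliceosome for activation, was at 188 and 195 against 129 and 131 CPM in MelanA, 229 and 224 against 142 and 144 CPM in B16F0, and 223 and 224 against 151 and 148 CPM in B16F10. Ddx46 fell by 0.51 ± 0.04, 0.64 ± 0.04 and 0.77 ± 0.04 and Ddx23 by 0.56 ± 0.03, 0.67 ± 0.03 and 0.58 ± 0.03 on the log2 scale, with no overlap between conditions in any line.

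Dhx15, which takes spliceosomes apart and is driven by G-patch proteins, was at 184 and 178 against 139 and 132 CPM in MelanA, 259 and 257 against 208 and 222 CPM in B16F0, and 270.4 and 275 against 190.2 and 192 CPM in B16F10. It fell by 0.42 ± 0.03, 0.26 ± 0.03 and 0.51 ± 0.03. Dhx38 fell by 0.13 ± 0.03, 0.13 ± 0.04 and 0.29 ± 0.04, the B16F0 value being -0.08 (adjusted p = 0.096) without the SX-682 replicate 1. Ddx41 rose by 0.40 ± 0.04, 0.29 ± 0.05 and 0.17 ± 0.04, and Ddx42, a partner of the branch-site complex, by 0.12 ± 0.03, 0.18 ± 0.03 and 0.26 ± 0.03. The spread over the other 4 members ran from -0.33 for Dhx35 in B16F10 to 0.17 for Dhx8 in B16F0. The call of Dhx35 in MelanA (-0.14 ± 0.06) was lost under most alternatives.

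Ddx39b and Ddx39 encode near-identical proteins of messenger RNA export, of which Ddx39b also works in spliceosome assembly, and they behaved differently. Ddx39b was at 154 and 159.7 against 153 and 153 CPM in MelanA, 201 and 198 against 198 and 202 CPM in B16F0, and 211 and 212 against 217 and 218 CPM in B16F10. Its log2 fold changes were -0.04, 0.00 and 0.04, with 95% intervals from -0.09 to 0.02, from -0.05 to 0.06 and from -0.02 to 0.09, so that falls of the size of Ddx39 lie outside them. Ddx39 was at 68.3 and 71.9 against 45.4 and 45.6 CPM in MelanA, 154 and 149.8 against 93.3 and 97.9 CPM in B16F0, and 91.6 and 91.3 against 46.1 and 47.0 CPM in B16F10. It fell by 0.62 ± 0.04, 0.67 ± 0.03 and 0.97 ± 0.04 (adjusted p of at most 7.5e-15, edgeR's quasi-likelihood test). The exons of Ddx39 share 17.4% of their bases with Adgre5 on the other strand, a gene at 59.2 CPM in the B16F0 controls and 36.3 CPM with SX-682 there but under 1 CPM in the other lines. The part of Adgre5 reads in the B16F0 value of Ddx39 was not tested, and whether counting used strand is not given in the sources used here.

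Of the other export helicases, Ddx19a fell in B16F0 and B16F10, by 0.29 ± 0.04 and 0.28 ± 0.05, with -0.03 ± 0.04 in MelanA. Ddx25 rose in the same 2 lines, by 0.28 ± 0.07 and 0.36 ± 0.08. Ddx19b passed the test in MelanA on 2 and 10 counts against 6 and 23 counts (log2 fold change 1.52 ± 0.55, adjusted p = 0.021, edgeR's quasi-likelihood test). Those libraries overlapped, and the value fell to 0.84 (adjusted p = 0.25) without the control replicate 1 and to 0.31 (adjusted p = 0.8) without the SX-682 replicate 2.

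**Figure D3:**
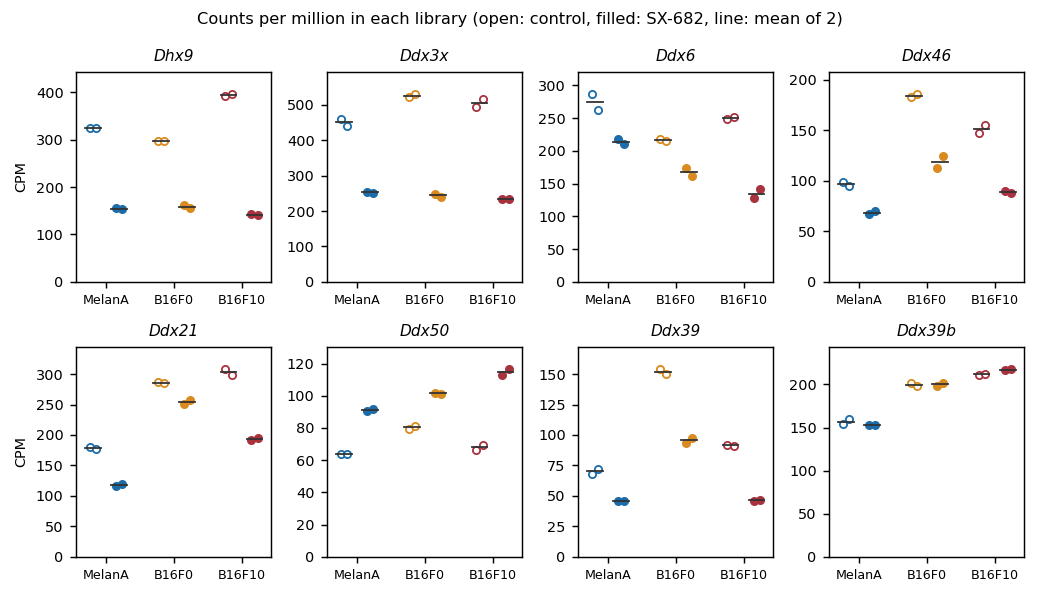
CPM of 8 members in each of the 12 libraries, from 0, with open circles for controls, filled circles for SX-682 and a line at the mean of 2 libraries. Dhx9, Ddx3x, Ddx6, Ddx46, Ddx21 and Ddx39 were lower with SX-682 in each line, Ddx50 was higher in each line, and Ddx39b stayed between 153 and 218 CPM with no called change.

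Of the 16 ribosome assembly helicases, 4 rose and 4 fell in all 3 lines. Over all genes tested, 11.3% rose and 11.7% fell in all 3 lines, or 18.4% and 20.7% at 10 CPM or more. Ddx21 (chr10:62580251-62602281, minus strand), a nucleolar helicase that works in ribosomal RNA synthesis and processing, was at 181 and 176 against 116 and 119.7 CPM in MelanA, 286 and 286 against 251 and 257 CPM in B16F0, and 308 and 298 against 191 and 195 CPM in B16F10. Its paralogue Ddx50 (chr10:62615895-62651218, minus strand), also nucleolar, was at 63.7 and 63.6 against 90.7 and 91.5 CPM in MelanA, 79.5 and 81.4 against 102 and 101 CPM in B16F0, and 66.6 and 69.3 against 113 and 116 CPM in B16F10. Conditions did not overlap for either gene in any line. Ddx21 fell by 0.60 ± 0.03, 0.17 ± 0.03 and 0.65 ± 0.03, and Ddx50 rose by 0.52 ± 0.03, 0.34 ± 0.03 and 0.75 ± 0.03 on the log2 scale, with adjusted p of at most 2.4e-06 in edgeR's quasi-likelihood test. The 2 genes lie 13613 bases apart on the same strand. The ratio of Ddx21 to Ddx50 counts went from 2.84 and 2.77 to 1.28 and 1.31 in MelanA, from 3.6 and 3.51 to 2.46 and 2.54 in B16F0, and from 4.62 and 4.30 to 1.70 and 1.68 in B16F10. Both genes changed less in B16F0 than in B16F10, by -0.48 ± 0.04 for Ddx21 and 0.42 ± 0.05 for Ddx50 (adjusted p = 4.2e-11 and 4.2e-08, same test).

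The other ribosome assembly members that fell in each line were Dhx33, Dhx37 and Ddx51. Dhx33, linked to ribosomal RNA transcription, was at 61.1 and 59.7 against 46.0 and 47.1 CPM in MelanA, 33.2 and 30.9 against 21.6 and 20.9 CPM in B16F0, and 49.6 and 51.2 against 28.0 and 28.1 CPM in B16F10. It fell by 0.38 ± 0.04, 0.60 ± 0.05 and 0.85 ± 0.05, and the falls of Dhx37, a small-subunit assembly helicase, were 0.23 ± 0.05, 0.24 ± 0.05 and 0.62 ± 0.05. Ddx51 fell by 0.18 ± 0.06, 0.39 ± 0.07 and 0.69 ± 0.06, of which the MelanA call was lost without either SX-682 library (adjusted p = 0.059 and 0.056, edgeR's quasi-likelihood test). Those that rose besides Ddx50 did so by less, with Ddx56 between 0.13 and 0.32, Ddx24 between 0.13 and 0.18 and Ddx27 between 0.10 and 0.14 on the log2 scale. Leaving out MelanA control replicate 2 or SX-682 replicate 2 ended the call of Ddx27 in MelanA (0.08 with adjusted p = 0.12, and 0.10 with adjusted p = 0.063), leaving out B16F10 control replicate 1 ended its call there (0.09, adjusted p = 0.068), and leaving out B16F0 control replicate 2 ended that of Ddx56 in B16F0 (0.10, adjusted p = 0.057).

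Ddx54, Ddx47 and Ddx49, also of ribosome assembly, were called in opposite directions in different lines, beside Ddx5 and Dhx36. Ddx54, a nucleolar helicase of large-subunit assembly, was at 73.2 and 72.3 against 77.2 and 80.2 CPM in MelanA, 89.9 and 93.4 against 114 and 112 CPM in B16F0, and 94.1 and 96.3 against 87.2 and 85.9 CPM in B16F10. It rose by 0.11 ± 0.03 and 0.30 ± 0.03 and fell by 0.14 ± 0.03, a difference between B16F10 and B16F0 of -0.44 ± 0.05 (adjusted p = 1.5e-08, edgeR's quasi-likelihood test). Ddx47, a pre-ribosomal RNA processing factor, was at 135 and 131 against 138 and 142 CPM in MelanA, 109 and 109.9 against 122 and 123 CPM in B16F0, and 158 and 159 against 142 and 144 CPM in B16F10. It rose by 0.07 ± 0.03 and 0.16 ± 0.03 and fell by 0.14 ± 0.03, and its MelanA call was lost without control replicate 2 (0.06, adjusted p = 0.18) or SX-682 replicate 2 (0.06, adjusted p = 0.22). The MelanA call of Ddx54 was lost without SX-682 replicate 2 (adjusted p = 0.081, same test).

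Ddx49 was at 28.3 and 30.0 against 38.1 and 36.4 CPM in MelanA, 53.1 and 52.8 against 44.4 and 43.1 CPM in B16F0, and 32.0 and 30.5 against 32.8 and 32.7 CPM in B16F10. It rose by 0.35 ± 0.05 in MelanA and fell by 0.27 ± 0.05 in B16F0, with 0.07 ± 0.05 in B16F10 (adjusted p = 0.27, edgeR's quasi-likelihood test). The exons of Ddx49 share 29.9% of their bases with Homer3 on the other strand, and Homer3 fell in each line, by 0.32, 0.82 and 0.71 on the log2 scale. The part of Homer3 reads in the values of Ddx49 was not tested.

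**Figure D4:**
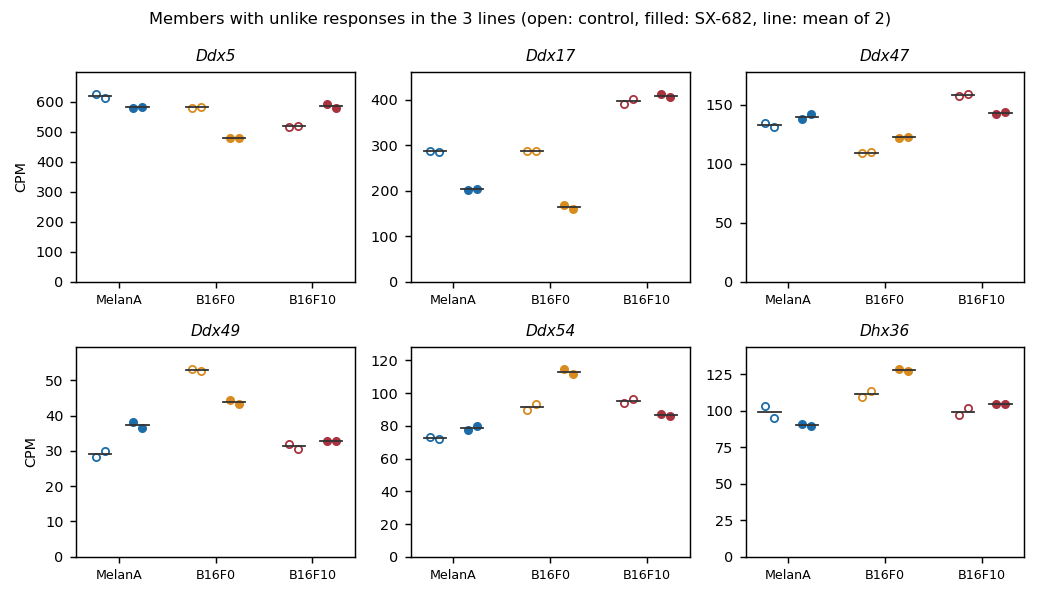
CPM of Ddx5, Ddx17, Ddx47, Ddx49, Ddx54 and Dhx36 in each of the 12 libraries, from 0, with open circles for controls, filled circles for SX-682 and a line at the mean of 2 libraries. Ddx5 was lower with SX-682 in MelanA and B16F0 and higher in B16F10, and Ddx47 and Ddx54 were higher in MelanA and B16F0 and lower in B16F10.

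All 3 antiviral sensors among the members were called higher with SX-682 in each line, as were 11.3% of all genes tested, or 18.4% at 10 CPM or more. The MelanA call of Dhx58 and the B16F10 calls of Dhx58 and Ddx60 did not hold under every alternative. Ifih1, from the list of other RNA helicases, rose in MelanA and B16F0 by 0.3 and 0.265 on the log2 scale. In B16F10 it was not called (0.054, adjusted p = 0.78, edgeR's quasi-likelihood test). Ddx58 was at 158 and 162 CPM in the MelanA controls and 178 and 187 CPM with SX-682, 24.6 and 23.8 against 29.0 and 29.9 CPM in B16F0, and 38.3 and 38.0 against 49.1 and 50.6 CPM in B16F10. It rose by 0.19 ± 0.03, 0.28 ± 0.04 and 0.38 ± 0.04 on the log2 scale (adjusted p of at most 9.1e-06, edgeR's quasi-likelihood test). The treated B16 lines stayed far under the untreated MelanA level of Ddx58.

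Ddx60 went from 15.1 and 15.8 to 20.8 and 20.6 CPM in MelanA, a rise of 0.42 ± 0.09. In B16F0 it went from 20 and 13 counts to 91 and 65 counts, that is from 0.267 and 0.193 to 1.38 and 1.35 CPM, a rise of 2.55 ± 0.25 or 5.86 times control (adjusted p = 5.9e-10, edgeR's quasi-likelihood test). In B16F10 it went from 12 and 11 counts to 20 and 32 counts, a rise of 1.23 ± 0.35 (adjusted p = 0.0037) that was 0.83 (adjusted p = 0.13) without SX-682 replicate 2. The mean response of the B16 lines exceeded that of MelanA by 1.47 ± 0.24 (adjusted p = 9.2e-06, same test). The difference between B16F10 and B16F0 (-1.32 ± 0.47, adjusted p = 0.033) was lost without B16F0 control replicate 2 (-1.12, adjusted p = 0.12) or SX-682 replicate 1 (-1.30, adjusted p = 0.055). It was also lost without either B16F10 control (-1.22 and -1.43, adjusted p = 0.15 and 0.076) or B16F10 SX-682 replicate 1 (-1.003, adjusted p = 0.13), and when genes of low count were not filtered out (-1.32, adjusted p = 0.088).

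Dhx58 went from 14.3 and 14.5 to 17.5 and 17.1 CPM in MelanA, from 2.12 and 3.09 to 4.22 and 4.07 CPM in B16F0, and from 44 and 34 counts to 66 and 69 counts in B16F10. It rose by 0.26 ± 0.10, 0.68 ± 0.14 and 0.85 ± 0.24 on the log2 scale. The MelanA call did not hold in DESeq2 (0.27, adjusted p = 0.076) or without any 1 of its 4 libraries, which gave 0.26 to 0.29 with adjusted p from 0.075 to 0.12 in edgeR's quasi-likelihood test. The B16F10 call was lost without control replicate 2 (0.63, adjusted p = 0.075).

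**Figure D5:**
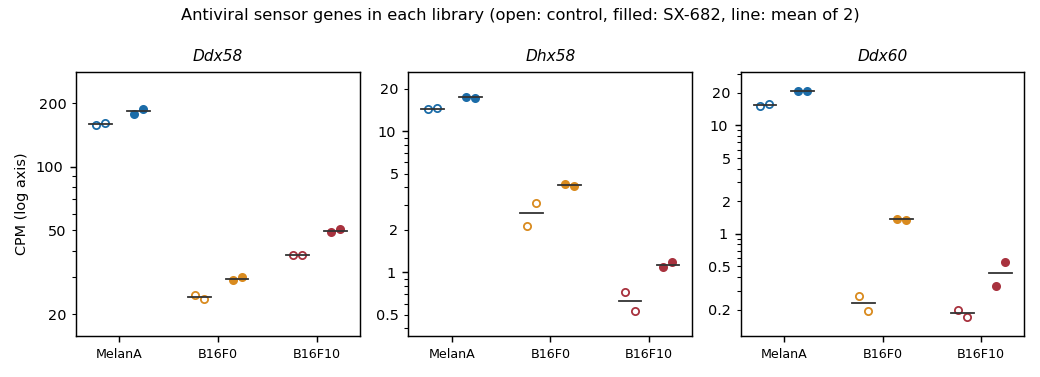
CPM of the antiviral sensor genes Ddx58, Dhx58 and Ddx60 in each of the 12 libraries on log axes, with open circles for controls, filled circles for SX-682 and a line at the mean of 2 libraries. MelanA lies highest in every panel, and both SX-682 libraries lie above both controls in each line.

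Among the remaining members, the mitochondrial ribosome factor Dhx30 rose in each line, by 0.12 ± 0.03, 0.52 ± 0.03 and 0.35 ± 0.03, and Ddx28, which has the same role, rose by 0.40 ± 0.06 in MelanA and B16F10 with -0.06 ± 0.06 in B16F0. Dhx40 was at 123 and 118 against 184 and 187 CPM in MelanA, 61.7 and 65.0 against 70.5 and 67.0 CPM in B16F0, and 69.8 and 69.2 against 98.4 and 101 CPM in B16F10. It rose by 0.63 ± 0.03, 0.12 ± 0.04 and 0.52 ± 0.04, and the B16F0 call was lost without control replicate 1 or SX-682 replicate 1, with 0.08 and adjusted p = 0.14 for each. Ddx59 was at 15.0 and 15.2 against 22.2 and 23.1 CPM in MelanA, 14.8 and 16.05 against 22.2 and 21.3 CPM in B16F0, and 13.0 and 14.2 against 21.7 and 23.2 CPM in B16F10. It rose by 0.59 ± 0.06, 0.50 ± 0.07 and 0.72 ± 0.07, and no difference among lines was called (adjusted p = 0.15, edgeR's quasi-likelihood test).

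Ddx11, which acts in sister chromatid cohesion, fell by 0.47 ± 0.05, 0.27 ± 0.05 and 0.37 ± 0.05. Dhx57 rose by 0.29 ± 0.05, 0.14 ± 0.05 and 0.23 ± 0.05, and its B16F0 call was lost without any 1 of the 4 B16F0 libraries. Besides Ddx39b, called in no line were Ddx4, at 0 to 30 counts, and Ddx55, whose log2 fold changes ran from -0.08 to 0.12.

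The other members were called in 1 or 2 lines, with smaller values. Of ribosome assembly, Ddx31 fell in B16F0 and B16F10 by 0.37 ± 0.08 and 0.38 ± 0.08, with -0.09 ± 0.08 in MelanA. Ddx52 rose in B16F0 and B16F10 by 0.30 ± 0.04 and 0.10 ± 0.04, Ddx18 by 0.14 ± 0.03 and 0.09 ± 0.03 in the same lines, and Ddx10 in MelanA by 0.17 ± 0.04. Ddx20, a part of the SMN complex that assembles spliceosomal particles, rose in B16F0 and B16F10 by 0.13 ± 0.05 and 0.18 ± 0.05. Dhx32 rose in MelanA and B16F10 by 0.36 ± 0.05 and 0.48 ± 0.05, with 0.04 ± 0.06 in B16F0. Of the spliceosome, Dhx8, which releases spliced messenger RNA, rose in MelanA and B16F0 by 0.11 ± 0.04 and 0.17 ± 0.04, and Dhx16, which acts just before the first step of splicing, fell in B16F0 by 0.12 ± 0.04. Several of these calls did not hold throughout. The B16F10 calls of Ddx52 and Ddx18 were lost without the low-count filter, in DESeq2 and without some libraries, at their lowest 0.07 (adjusted p = 0.32) for Ddx52 and 0.06 (adjusted p = 0.32) for Ddx18, both without B16F10 control replicate 2. Those of Ddx10 in MelanA (0.12, adjusted p = 0.069, without SX-682 replicate 2) and of Ddx20 in B16F10 (0.13, adjusted p = 0.11, without control replicate 1) rested on 1 library. The B16F0 calls of Ddx20 and Dhx16 were lost without B16F0 control replicate 1 (0.10 and -0.08, adjusted p = 0.24 and 0.2) or SX-682 replicate 2 (0.11 and -0.08, adjusted p = 0.16 and 0.14), and that of Ddx20 also without the low-count filter (0.13, adjusted p = 0.066). The MelanA call of Dhx8 was lost without MelanA control replicate 2 (0.08, adjusted p = 0.18) or SX-682 replicate 2 (0.07, adjusted p = 0.23, edgeR's quasi-likelihood test).

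Whether a response differed among the lines was tested directly. The F-test of edgeR's quasi-likelihood fit called 35 of the 51 members, with 47.4% of all genes tested called, and at 10 CPM or more 68.8% of members and 74.9% of genes. The mean response of the B16 lines differed from that of MelanA in 12 members toward higher and 17 toward lower values, with 18.7% and 17.1% of all genes. B16F10 differed from B16F0 in 8 members toward higher and 15 toward lower values, with 15.3% and 14.9% of all genes. These shares were 56.2% of members against 57.5% of genes at 10 CPM or more for the former, and 45.8% against 49.8% for the latter. In 3 members, Ddx5, Ddx47 and Ddx54, the change was called in all 3 lines but in differing directions (4.93% of all genes).

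The 12 members with a called response of at least 0.5 in MelanA were Dhx9, Ddx3x, Ddx39, Dhx34, Ddx23, Ddx46, Ddx21, Ddx50, Dhx40, Ddx59, Dhx29 and the barely counted Ddx19b. The first 6 of these passed that size in both B16 lines, and Ddx21, Ddx50, Dhx40 and Ddx59 passed it in B16F10, where Ddx6, Ddx51, Dhx37 and Dhx15 also did. Ddx59 missed it in B16F0 with 0.498. Ddx17 passed it in B16F0 and Dhx33, Dhx58 and Ddx60 in both B16 lines, as Dhx30 did in B16F0.

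RNA helicases whose symbols are not Ddx or Dhx, and proteins that work with helicases, were taken from lists by function. In MelanA 23.4% of all genes tested rose and 24.7% fell, in B16F0 25.1% and 25%, in B16F10 25.5% and 25.3%, and in all 3 lines 11.3% and 11.7%, or 18.4% and 20.7% of genes at 10 CPM or more. Of 19 other RNA helicases tested, 7 rose and 6 fell in MelanA, 7 rose and 5 fell in B16F0, and 6 rose and 8 fell in B16F10, with 4 rising and 4 falling in all 3 lines and medians of -0.03, -0.01 and -0.08 on the log2 scale. Eif4a2, a DEAD box translation initiation factor named outside the Ddx series, rose by 0.88, 0.61 and 1.10 on the log2 scale. Ighmbp2 rose by 0.58, 0.73 and 0.64, and Ascc3, which acts on stalled ribosomes and alkylated DNA, by 0.58, 0.64 and 0.36. Supv3l1, a mitochondrial RNA helicase, rose by 0.24, 0.43 and 0.37.

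Of 37 helicase cofactors, G-patch and MIF4G proteins and partners of DDX6, DDX19 and DDX39B, 5 rose and 21 fell in MelanA, 6 rose and 22 fell in B16F0, and 6 rose and 24 fell in B16F10. In all 3 lines 3 rose and 17 fell, and the median log2 fold changes were -0.16, -0.22 and -0.22, against 0 over all genes. The list was chosen with earlier results of these data known, so these values are no test of the cofactors as a group. The G-patch protein Rbm5, a splicing regulator, fell by 0.73, 0.64 and 0.60. Nkrf, a G-patch partner of DHX15, fell by 0.57, 0.55 and 0.58, and Gpatch4 by 0.46, 0.79 and 0.81. Thoc2, the scaffold of the THO complex to which DDX39B binds, fell by 0.53, 0.38 and 0.78.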

How the data were processed

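RNA-seq counts per gene were analysed for 12 libraries, 2 in each of 6 groups named in the sample labels. The authors deposited raw counts without normalization, as whole reads per gene with the gene's identifier, coordinates and exon length. The submitters' processing notes name cutadapt, STAR, DESeq2 and mm10; versions, the counting program and its strand setting are not given in the sources used here. Identifier, coordinates and length matched GENCODE M21 (GRCm38) for 33821 of 34513 genes and all 51 members.

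All libraries were fitted together in edgeR 4.0.16 (R 4.3.3) by the quasi-likelihood F-test, with TMM scaling, filterByExpr (18338 genes kept) and no block; p-values were adjusted by Benjamini-Hochberg over all genes tested, threshold 0.05. Residual degrees of freedom were 6 and prior degrees of freedom 21.9. The standard error of a log2 fold change is its size over the root of F. It is too small where a large difference rests on few counts, so none is given for Ddx19b and Ddx60 between controls. Helicase CPM and RPKM use TMM-scaled library sizes, and marker CPM use raw library totals. The floor of 3 counts was 0.033 to 0.062 CPM and covers counting error only. Replicates differed by more than counting noise (chi-square per gene 2.73 to 5.05). Control comparisons share libraries with each other and with the responses.

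Alternatives were other scalings and filters, DESeq2 1.42.0, separate fits, the replicate block, each library left out, a prior count of 2, a fold limit and a stricter threshold. Library values are given for up to 10 members with the largest called changes per comparison (mean log2 CPM of at least 1, libraries not overlapping), for members called in opposite directions, and for members chosen by role; other lists give up to 4 genes each, those with the largest smallest change. Members and lists were chosen with earlier results of these data known. Shares at 10 CPM were added after seeing the data. Start windows are from RefSeq (GRCm38.p6), from 250 bases before to 50 after the start. Ddx3y, Ddx43 and Ddx53 were not analysed here.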

Additional observations from a re-analysis of the deposited data

Results flagged for a closer look

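The responses to SX-682 of 35 members differed among MelanA, B16F0 and B16F10 by the F-test of edgeR's quasi-likelihood fit. That test called 47.4% of all genes. At 10 CPM or more it called 68.8% of members and 74.9% of genes, so such differences were no more frequent among the members. The size given is the range of the log2 fold change over the 3 lines. It was at least 0.5 in 9 members and under 0.5 in 26.

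The ranges of at least 0.5 were, on the log2 scale, Ddx60 2.13, Ddx17 0.85, Ddx49 0.63, Dhx58 0.59, Dhx9 0.58, Ddx6 0.54, Dhx29 0.52, Dhx40 0.51, Ddx51 0.50. In Ddx60 and Dhx58 the range includes groups with few counts in the B16 lines.

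Ranges under 0.5 were Ddx21 0.48, Dhx33 0.47, Ddx28 0.46, Ddx5 0.45, Ddx54 0.44, Dhx32 0.43, Ddx50 0.42, Dhx30 0.40, Dhx37 0.39. Further ranges were Dhx35 0.36, Ddx39 0.35, Dhx36 0.33, Ddx47 0.31, Ddx31 0.29, Ddx3x 0.28, Ddx52 0.28, Ddx19a 0.26, Ddx46 0.26. The narrowest were Dhx15 0.25, Ddx41 0.23, Ddx10 0.20, Ddx58 0.19, Ddx56 0.19, Dhx38 0.16, Ddx1 0.15, Ddx42 0.15.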

How the results depend on the processing

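Of 308 member calls over the 8 comparisons, 246 were kept and 62 were lost under at least 1 change of scaling, low-count filter, tool, samples in the fit, block, prior count or left-out library, counting for each call the settings that gave it a value, and none of the 308 changed sign. The fold limit and the stricter threshold are not in that count. A fold limit of 0.5 on the log2 scale lowered the counts of members called to 12 in MelanA, 11 in B16F0 and 17 in B16F10, to 3 and 4 for the response differences of the B16 lines from MelanA and of B16F10 from B16F0, and to 19, 16 and 13 for the control comparisons in the order of the report. Under it 6 members were called in all 3 lines in the same direction, and 4 genes of the other helicase and cofactor lists. An adjusted p under 0.01 lowered the response difference of the B16 lines from MelanA from 29 to 17 members. For the response differences and the controls, no share of all genes is given under the fold limit or the stricter threshold. Those counts therefore show only how the calls of members moved.

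With each library left out in turn, its partner being taken to vary like the other groups, the counts ranged from 31 to 39 in MelanA, 37 to 41 in B16F0 and 38 to 41 in B16F10. They ranged from 21 to 28 and from 21 to 24 for the response differences, from 42 to 45, 42 to 46 and 37 to 45 for the controls, from 31 to 35 for the F-test, from 24 to 27 for members called in all 3 lines and from 24 to 27 for the lists. The replicate numbers of the labels gave no sign of pairing, since deviations of same-numbered libraries correlated at -0.011, 0.046 and -0.011. With 2 libraries in a group, these values cannot tell whether same-numbered libraries were cultured or prepared together. With the replicate block 39, 41 and 41 members were called in the 3 lines, 29 and 23 for the response differences, 45, 46 and 43 for the controls, 34 by the F-test, 27 in all 3 lines and 28 for the lists. Other scalings moved the median of all genes by at most 0.053 on the log2 scale.

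Depth limits Ddx4 in every line, Ddx60 and Dhx58 in the B16 lines and Ddx19b in MelanA, where groups hold few counts. How reads of overlapping opposite-strand genes and of near-identical paralogues were counted was not tested.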
